A study of Mus musculus with 15 samples.

Results

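A set of 10 genes of the bone morphogenetic protein (BMP) system were followed across mouse endometrial epithelial organoids in which TGFβ signaling through SMAD2 and SMAD3 was blocked by a drug, by gene deletion or by both. The genes were taken by symbol from a list drawn up with earlier results of these data known, the rule itself using no expression value, and each was found among the 16729 genes measured. They comprise 3 ligands (*Bmp2*, *Bmp4* and *Bmp7*), 6 secreted antagonists and binding proteins (*Fst*, *Fstl1*, *Fstl3*, *Bmper*, *Chrd* and *Nbl1*) and the membrane pseudoreceptor *Bambi*. RNA was sequenced from 15 organoid cultures in 4 groups. Control + vehicle (n = 3) and control + A83-01 (n = 4) carried floxed *Smad2* and *Smad3* alleles without Cre and received DMSO or 500 nM A83-01, an inhibitor of the type 1 receptors ALK4, ALK5 and ALK7. The *Smad2/3* cKO cultures (n = 4) and those with A83-01 added, *Smad2/3* cKO + A83-01 (n = 4), carried the same floxed alleles with the lactoferrin-driven *Ltf*-cre, which acts in uterine epithelium. They too received the vehicle, DMSO, or the same dose of A83-01. The mice were adults, by the study's methods 6 to 8 weeks old unless stated otherwise, of mixed C57BL/6J and 129S5/SvEvBrd background, and received estradiol at weaning to switch on the Cre. All cultures grew in Matrigel with EGF, FGF-10, HGF and conditioned media holding WNT3a, R-spondin and Noggin, so every group was exposed to an added BMP antagonist.

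BMP ligands are secreted dimers that bind type 1 and type 2 serine/threonine kinase receptors and act mainly through SMAD1 and SMAD5, while activins and TGFβ act through SMAD2 and SMAD3. Antagonists outside the cell bind the ligands and keep them from the receptors, and several of them, *Fst* and *Fstl3* among them, bind activins as well as BMPs. In the uterus both branches take part in the preparation of the endometrium for the embryo.

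Values are normalized counts, in which the estimated reads of each gene are scaled to make samples comparable. The exact scaling is not stated. Their sums ran from 20241771 to 24423127 over the samples. The targeted genes came first. *Smad2* stood at 1335, 1132 and 1045 in control + vehicle, 970.0, 1062, 984 and 912 in control + A83-01, 924, 863, 892 and 821 in *Smad2/3* cKO, and 813, 1211, 854 and 804 in *Smad2/3* cKO + A83-01. *Smad3* ranged from 1532 to 1741, 669 to 2003, 1169.6 to 1977 and 797 to 1689 in these groups. Neither passed the thresholds in *Smad2/3* cKO against control + vehicle (log2 fold change -0.41 ± 0.14 SE, adjusted p = 0.0656 for *Smad2*, and -0.07 ± 0.18, adjusted p = 0.827 for *Smad3*). A total per gene also holds reads from exons outside the floxed ones, so it neither checks nor contradicts the genotype labels. The 7 epithelial markers (*Epcam*, *Cdh1*, keratins and claudins) were high in every sample, with sums of 173068 to 217578 in control + vehicle, 121773 to 187724 with A83-01, 95789 to 153644 in the cKO cultures and 93296 to 134215 with both treatments. Neither cKO group overlapped control + vehicle in this sum. *Smad2/3* cKO replicate 2 stood apart in the macrophage gene *Adgre1*, at 351 against at most 9.0 in each of the other samples.

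Each pair of groups was compared with limma on log2 (normalized count + 1), and fold changes are on that scale, which understates the change of low genes. The thresholds were an adjusted p (Benjamini-Hochberg, over all genes tested) below 0.01 and a change of more than 1.4-fold in either direction. Of the 10 genes, 7 reached a mean of 10 and were tested in each comparison with control + vehicle. *Bmp2*, *Bmp4* and *Fstl1* did not reach it in any comparison. In control + A83-01 against control + vehicle 1 of the 7 passed, which was *Fst*, lower, beside 2.27% of all genes. In *Smad2/3* cKO against control + vehicle *Fst* alone passed again, lower, beside 7.38% of all genes. In *Smad2/3* cKO + A83-01 against control + vehicle 3 passed, *Fst* lower and *Fstl3* and *Bmper* higher, beside 11.7% of all genes. The median log2 fold change of the 7 was -0.28, -0.65 and 0.42 in these comparisons, where that of all genes lay at -0.02, 0.00241 and -0.00723. The 3 comparisons share the control + vehicle samples, so their values stand side by side and are not independent. By the study's methods, cultures of the same condition came from different mice. Those methods do not list the group with both treatments. Of the numbers in the sample descriptions, 3 recur in both control groups, 1 of these also in *Smad2/3* cKO, and 1 recurs in both *Smad2/3* cKO groups. What they stand for is not stated, so p-values measure the spread between these cultures.

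**Figure D1:**
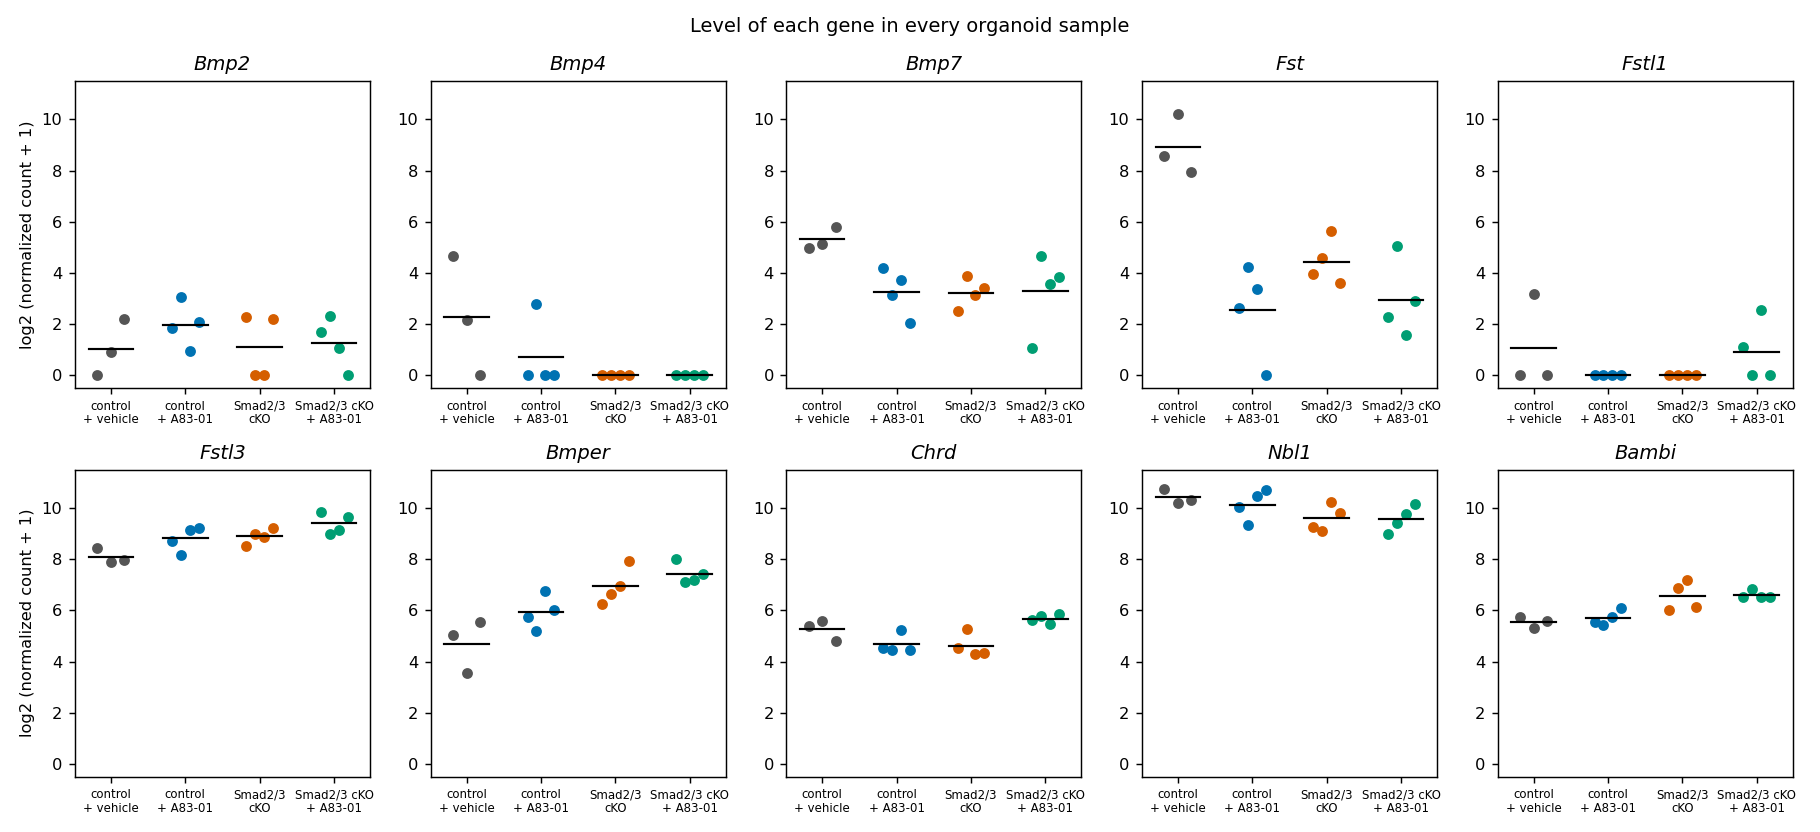
Each panel plots 1 gene, with log2 (normalized count + 1) on the vertical axis and the 4 groups on the horizontal axis. Points are single organoid cultures and bars are group means on the log2 scale (n = 3 in control + vehicle, n = 4 in each other group). *Fst* lies between 247 and 1183 normalized counts in control + vehicle and at 48.6 or below in the other 12 cultures.

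Among the ligands, *Bmp7* was the 1 with a measurable level, and it was highest in control + vehicle. *Bmp7* (ENSMUSG00000008999, chr2:172868012-172940321 in GRCm38, minus strand) encodes a ligand needed for kidney and eye development and also made in the uterus. It stood at 30.6, 34.3 and 54.4 in control + vehicle, 17.4, 7.67, 12.3 and 3.07 in control + A83-01, 4.64, 13.6, 7.67 and 9.58 in *Smad2/3* cKO, and 1.09, 24.1, 10.7 and 13.3 in *Smad2/3* cKO + A83-01. Every control + vehicle culture lay above every culture of the other groups, which overlapped one another. The log2 fold change against control + vehicle was -2.04 ± 0.65 (SE) with A83-01, -2.09 ± 0.55 with the deletion and -2.03 ± 0.82 with both. None of these passed the thresholds (limma adjusted p = 0.0976, 0.0297 and 0.108). Between *Smad2/3* cKO + A83-01 and *Smad2/3* cKO the interval of the difference ran from -1.75 to 1.86 on the log2 scale.

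*Bmp4* and *Bmp2*, closely related ligands that signal through the same receptors, were at or near the limit of measurement. *Bmp4* was 24.2, 3.51 and 0 in control + vehicle and 0, 5.82, 0 and 0 in control + A83-01, and it was at 0 in all 8 cultures of both *Smad2/3* cKO groups. The level above 10 thus came from control + vehicle replicate 1 alone. *Bmp2* reached at most 3.60 in control + vehicle, 7.41 in control + A83-01, 3.80 in *Smad2/3* cKO and 3.98 with both treatments. A change in either gene was not detectable at this depth.

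*Fst* showed the largest difference of the 7 tested genes in each comparison with control + vehicle. It encodes follistatin, a secreted protein that binds activins tightly and some BMPs less tightly, and lies at chr13:114452290-114458951 (GRCm38, minus strand, ENSMUSG00000021765). Its normalized counts were 380.2, 1183 and 247 in control + vehicle. They were 5.22, 17.5, 9.39 and 0 in control + A83-01, 14.5, 23.0, 48.6 and 11.0 in *Smad2/3* cKO, and 3.86, 32.4, 1.95 and 6.46 in *Smad2/3* cKO + A83-01. The lowest control + vehicle culture lay above the highest of the other 12, and the other 3 groups overlapped. *Fst* fell by 6.36 ± 0.98 (SE) on the log2 scale with A83-01 in control organoids (limma adjusted p = 0.00671, 95% interval -8.57 to -4.15). It fell by 4.47 ± 0.63 in *Smad2/3* cKO (adjusted p = 0.00239, interval -5.90 to -3.05). With deletion and drug together it fell by 5.96 ± 0.83 (adjusted p = 0.00104, interval -7.83 to -4.09).

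The direction of *Fst* was the same whichever culture was left out, but the calls were not. For A83-01 in control organoids the call was lost without control + vehicle replicate 1, 2 or 3 (adjusted p = 0.0328, 0.0434 and 0.0174) and without control + A83-01 replicate 1 or 3 (0.0137 and 0.0145). In *Smad2/3* cKO it was lost without control + vehicle replicate 1 or 2 (0.0124 and 0.0118), and with both treatments no culture decided it (0.00025 to 0.00733). Without *Smad2/3* cKO replicate 2, the culture with high *Adgre1*, *Fst* in *Smad2/3* cKO differed by -4.52 (adjusted p = 0.00602) and was again the 1 of the 7 genes that passed. The size for A83-01 in control organoids depends on the value added before the logarithm, from -7.29 with 0.1 to -4.87 with 10.

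**Figure D2:**
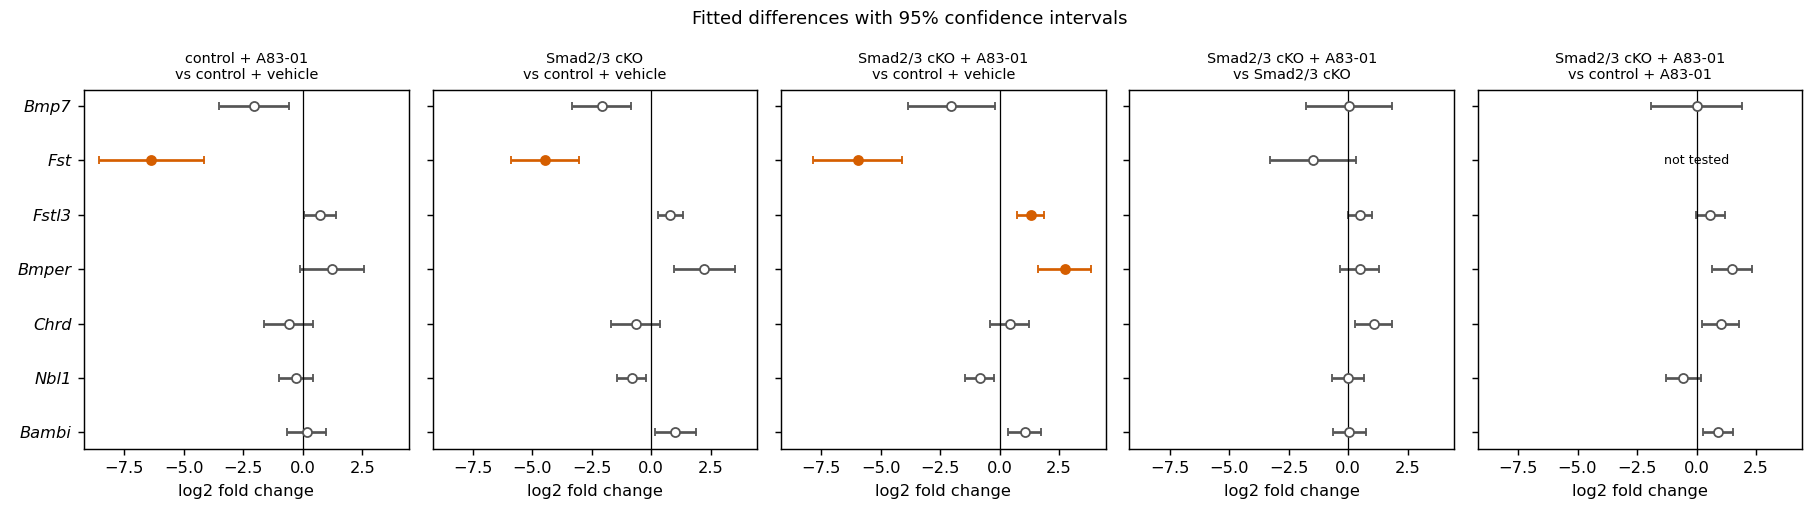
Log2 fold change (horizontal axis) with its 95% confidence interval for the 7 tested genes (vertical axis) in 5 comparisons, 1 per panel. Filled orange points passed the thresholds and open points did not. *Fst* lies far to the left in the 3 panels against control + vehicle, at -6.36, -4.47 and -5.96, and *Fstl3* and *Bmper* are filled in the third panel alone. *Fst* was below the filter in the last panel.

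*Fstl3*, a secreted relative of follistatin that also binds activins, differed in the opposite direction from *Fst*. It lies at chr10:79777272-79782630 (GRCm38, plus strand, ENSMUSG00000020325), and 47.32% of its exon bases are shared with *Prss57* on the other strand. Since the library kit does not mark strand, reads there cannot be assigned by strand, but *Prss57* was listed at 15.03 or below in every culture. *Fstl3* stood at 344, 239 and 246 in control + vehicle, 421, 289, 561 and 598 in control + A83-01, 362, 510.1, 465 and 604 in *Smad2/3* cKO, and 917, 508, 559.6 and 797 in *Smad2/3* cKO + A83-01. Both *Smad2/3* cKO groups lay wholly above control + vehicle, and control + A83-01 overlapped it. *Fstl3* rose with deletion and drug together (log2 fold change 1.31 ± 0.25 SE, limma adjusted p = 0.00555). The differences for *Smad2/3* cKO (0.81 ± 0.23, adjusted p = 0.0393) and for A83-01 in control organoids (0.72 ± 0.30, adjusted p = 0.192) did not pass. The call was lost without control + vehicle replicate 1, 2 or 3 (adjusted p = 0.0101, 0.0277 and 0.0197) and without *Smad2/3* cKO + A83-01 replicate 1 or 4 (0.0134 and 0.0208).

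*Bmper* encodes a secreted protein with von Willebrand factor C domains that binds BMPs and can hold back or favor their signaling. It lies at chr9:23223076-23485200 (GRCm38, plus strand, ENSMUSG00000031963). Its normalized counts were 31.5, 10.6 and 45.4 in control + vehicle, 52.8, 35.4, 108 and 63.6 in control + A83-01, 74.5, 98.0, 123 and 241 in *Smad2/3* cKO, and 258, 136, 144 and 170.0 in *Smad2/3* cKO + A83-01. Both *Smad2/3* cKO groups lay wholly above control + vehicle, and *Smad2/3* cKO + A83-01 lay wholly above control + A83-01 too. *Bmper* rose with both treatments (log2 fold change 2.73 ± 0.49 SE, limma adjusted p = 0.00388). The difference was 2.24 ± 0.57 in *Smad2/3* cKO (adjusted p = 0.0257), 1.23 ± 0.59 with A83-01 in control organoids (adjusted p = 0.265) and 1.50 ± 0.38 between *Smad2/3* cKO + A83-01 and control + A83-01 (adjusted p = 0.198). The call with both treatments was lost without control + vehicle replicate 1 (adjusted p = 0.0119) and without *Smad2/3* cKO + A83-01 replicate 1 or 4 (0.0122 and 0.0138). In 1 fit of all 4 groups *Bmper* passed in *Smad2/3* cKO as well (adjusted p = 0.00668).

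*Fstl3* and *Bmper* were the genes that rose, and the bases just before their start sites are shown because SMAD proteins bind short DNA motifs in promoters. RefSeq windows (GRCm38.p6) matched 6 of the 10 genes, *Bmp4*, *Bmper*, *Chrd*, *Fstl1*, *Fstl3* and *Nbl1*, each from 250 bases before to 50 bases after the start site. Searched on both strands were the SMAD element GTCTG, the palindromic SMAD element GTCTAGAC, the SMAD element rich in G and C, which reads GGCGCC, and the AP-1 element TGANTCA. No match of one of these lies inside another, and capitals mark GTCTG on either strand. The runs below stop before the first annotated exon base, at chr10:79777024-79777271 (plus strand) for *Fstl3* and chr9:23222826-23223075 (plus strand) for *Bmper*.
Fstl3: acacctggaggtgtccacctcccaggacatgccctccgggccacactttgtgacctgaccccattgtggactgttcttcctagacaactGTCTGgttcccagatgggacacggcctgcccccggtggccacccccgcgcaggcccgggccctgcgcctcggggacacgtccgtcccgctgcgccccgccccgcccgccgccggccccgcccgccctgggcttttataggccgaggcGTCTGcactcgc
Bmper: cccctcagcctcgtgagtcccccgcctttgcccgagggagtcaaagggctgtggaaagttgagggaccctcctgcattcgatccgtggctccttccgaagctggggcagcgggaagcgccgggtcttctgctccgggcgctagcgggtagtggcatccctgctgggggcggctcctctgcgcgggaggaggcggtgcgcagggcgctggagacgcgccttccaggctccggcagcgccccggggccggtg
The *Fstl3* run holds 2 copies of GTCTG, starting 161 and 14 bases before the start site, and the *Bmper* window holds none of the 4 motifs. Of all 32851 windows 49.6% held GTCTG, 0.213% held the palindrome, 11.9% held the element rich in G and C and 7.81% held the AP-1 element. In the whole windows *Chrd* and *Nbl1* each held 1 GTCTG, after the start site, and 1 element rich in G and C before it, and *Bmp4* and *Fstl1* held no match. These matches describe letters and not bound sites.

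*Chrd* encodes chordin, which binds BMP2 and BMP4 and is cut by tolloid-type proteases. Its normalized counts were 40.5, 47.3 and 27.0 in control + vehicle, 22.2, 20.9, 36.7 and 20.9 in control + A83-01, 22.1, 37.5, 18.9 and 19.0 in *Smad2/3* cKO, and 47.8, 53.8, 43.8 and 56.8 in *Smad2/3* cKO + A83-01. The cultures with both treatments lay wholly above those with either treatment alone and overlapped control + vehicle. No difference passed the thresholds. The log2 fold change of *Smad2/3* cKO + A83-01 was 1.07 ± 0.35 (SE) against *Smad2/3* cKO (limma adjusted p = 0.994) and 1.01 ± 0.35 against control + A83-01 (adjusted p = 0.382), and those of the single treatments against control + vehicle were -0.59 ± 0.45 with A83-01 and -0.65 ± 0.46 with the deletion. *Chrd* shares 3.819% of its exon bases with *Thpo* on the other strand.

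*Nbl1* encodes DAN, a cystine-knot protein that binds BMPs and related growth factors, and had the highest mean level per kilobase of exon of the 10 genes in every group. It stood at 1705, 1183 and 1278 in control + vehicle, 1056, 655, 1403 and 1666 in control + A83-01, 612, 555, 1210.3 and 894 in *Smad2/3* cKO, and 503, 686, 880.1 and 1156 in *Smad2/3* cKO + A83-01. Only the cultures with both treatments lay wholly below control + vehicle. The log2 fold change was -0.28 ± 0.31 (SE) with A83-01, -0.82 ± 0.27 with the deletion and -0.83 ± 0.27 with both, and none passed (limma adjusted p = 0.661, 0.0678 and 0.0534). The last gene of this class, *Fstl1*, encodes a secreted glycoprotein that binds BMP4 and is typical of mesenchymal cells. It was above 0 in 3 cultures, at 7.94 in control + vehicle replicate 2 and at 1.12 and 4.77 in *Smad2/3* cKO + A83-01 replicates 1 and 3.

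*Bambi* encodes a membrane protein that resembles a type 1 receptor without a kinase domain. Its normalized counts were 52.5, 38.5 and 46.9 in control + vehicle, 45.9, 42.0, 53.2 and 67.2 in control + A83-01, 63.6, 117, 145 and 68.9 in *Smad2/3* cKO, and 91.5, 113, 90.7 and 89.8 in *Smad2/3* cKO + A83-01. Both *Smad2/3* cKO groups lay wholly above control + vehicle, while control + A83-01 overlapped it. No difference passed the thresholds, with log2 fold changes of 0.17 ± 0.37 (SE) with A83-01, 1.01 ± 0.39 with the deletion and 1.06 ± 0.30 with both (limma adjusted p = 0.844, 0.101 and 0.0335). The processed pseudogene *Bambi-ps1* was listed at 0 in control + vehicle and at 1.22 to 14.8 in the other cultures, so the split of reads between the copies is uncertain.

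Counted over the tested genes, 2 of 7 did not overlap control + vehicle with A83-01 in control organoids, beside 21.7% of all genes. The count was 5 of 7 in *Smad2/3* cKO, beside 30.8%, and 6 of 7 with both treatments, beside 33%. In the last, *Bmp7*, *Fst* and *Nbl1* lay below and *Fstl3*, *Bmper* and *Bambi* above.

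Adding A83-01 to *Smad2/3* cKO organoids addressed whether the drug acted beyond the deletion. None of the 7 tested genes passed the thresholds in limma, beside 0% of all genes, and 1 of them, *Chrd*, had an unadjusted p below 0.05, as did 554 of 12998 genes. *Chrd* was also the 1 gene whose groups did not overlap, beside 2.9% of all genes. For *Fst* the log2 difference was -1.49 with an interval of -3.29 to 0.32, so a further drop of that size could not be told from none. For *Fstl3* the interval was -0.01 to 1.01, for *Bmper* -0.33 to 1.31, for *Nbl1* -0.69 to 0.66 and for *Bambi* -0.65 to 0.74.

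Comparing *Smad2/3* cKO + A83-01 with control + A83-01 set the genotypes side by side under the drug. These groups also differ in the numbers of their sample descriptions. Genotype cannot be fully told apart from what those numbers stand for. None of the 6 tested genes passed, beside 0.0232% of all genes, and 3 had an unadjusted p below 0.05 in limma, as did 1229 of 12915 genes. The 3 were *Bmper*, *Chrd* and *Bambi*, each wholly higher with the deletion, beside 6.12% of all genes whose groups did not overlap. *Bambi* differed by 0.89 ± 0.28 SE on the log2 scale (limma adjusted p = 0.338). *Fst* was below the filter in these 8 cultures.

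Deletion and drug were also set against each other directly, in *Smad2/3* cKO against control + A83-01. None of the 6 tested genes passed, beside 0% of all genes, and 2 had an unadjusted p below 0.05 in limma, *Bmper* (log2 difference 1.01, interval 0.01 to 2.00) and *Bambi* (0.85, interval 0.05 to 1.65), as did 826 of 12980 genes. No tested gene had groups that did not overlap, beside 3.45% of all genes. *Fst* differed by 1.88 with an interval of -0.19 to 3.95, and *Fstl3* by 0.09 with an interval of -0.50 to 0.67.

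Whether A83-01 acted differently in the genotypes was tested as an interaction over all 15 cultures, in which none of the 7 genes passed, beside 0.551% of all genes. *Fst* and *Chrd* had an unadjusted p below 0.05 in limma, as did 1865 of 13066 genes. For *Fst* the effect of the drug in *Smad2/3* cKO minus that in control organoids was 4.87 ± 1.34 SE on the log2 scale (limma adjusted p = 0.0906). *Fst* stood at only 11.0 to 48.6 in *Smad2/3* cKO without the drug. A fall as large as that in control organoids was therefore not possible there on this scale. For *Chrd* it was 1.66 ± 0.50 (adjusted p = 0.123), with lower values under the drug in control organoids and higher ones in *Smad2/3* cKO. For *Bmper* it was -0.74 with an interval of -2.22 to 0.74.

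Levels of different genes were compared per kilobase of exon, counting all annotated exon bases of a gene, whichever of its transcripts were present. In control + vehicle *Nbl1* stood first at 683 ± 137 normalized counts per kilobase (SD, n = 3), followed by *Fst* at 131 ± 110.3 and *Fstl3* at 113 ± 24.0, whose ranges overlapped. *Bmp7* (9.90), *Bambi* (9.05), *Chrd* (6.11) and *Bmper* (6.03) came next. The range of *Bmper* overlapped the others, and that of *Chrd* ended just below those of *Bambi* and *Bmp7*. With both treatments the order was *Nbl1* at 397 ± 137 (SD, n = 4), *Fstl3* at 284 ± 79.4, *Bmper* at 36.6 ± 11.6, *Bambi* at 19.0 ± 2.20, *Chrd* at 8.08 ± 0.94, *Bmp7* at 3.06 ± 2.35 and *Fst* at 2.43 ± 3.11. *Fst* thus stood near the top of this order in control + vehicle and among the lowest of the 7 with both treatments, where its range overlapped those of *Bmp7* and *Chrd*. *Nbl1* and *Fstl3* overlapped at the top.

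**Figure D3:**
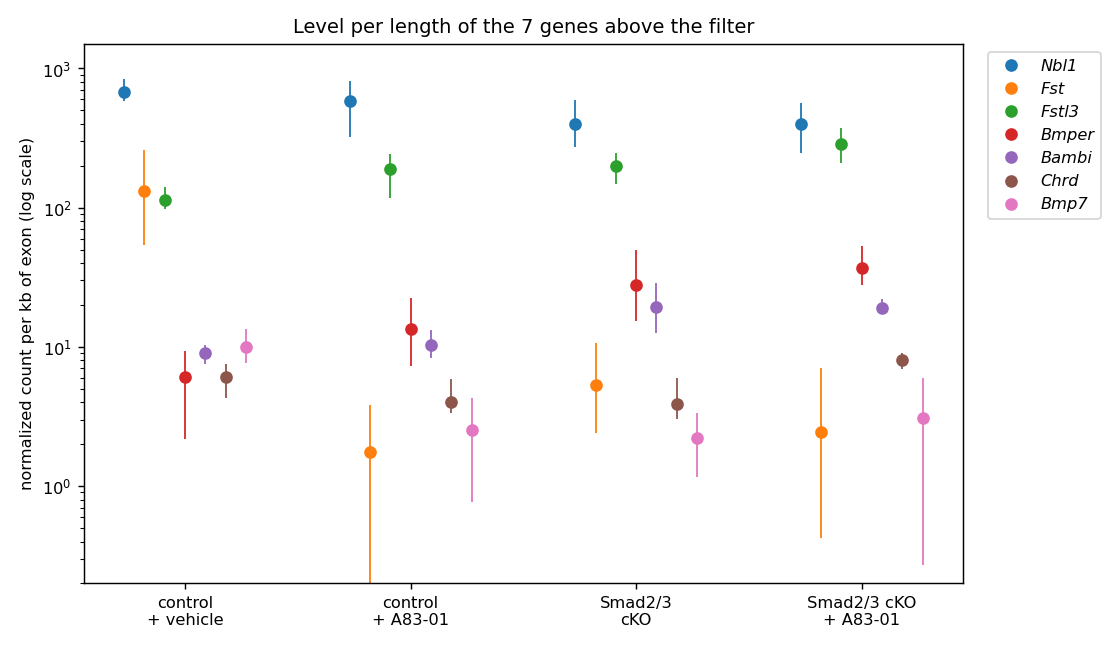
Normalized count per kilobase of exon (vertical log axis) of the 7 tested genes in the 4 groups (horizontal axis). Points are group means and vertical lines run from the lowest to the highest culture, with values under 0.2 cut at the axis. *Fst* drops from 131 in control + vehicle to 1.75, 5.29 and 2.43, while *Bmper* stands at 6.03, 13.5, 27.8 and 36.6.

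The other genes of the pathway were read from lists of the remaining BMP and GDF ligands, antagonists, receptors, SMADs with BMP-responsive genes, and activin and TGFβ ligands. Of the other 14 ligands listed, 7 were in the file, and none of 4 tested passed with A83-01 in control organoids, 2 of 4 rose in *Smad2/3* cKO and 2 of 5 rose with both treatments. *Bmp3*, an atypical BMP that can oppose the others, rose by a log2 fold change of 4.42 ± 0.81 (SE) in *Smad2/3* cKO and 4.68 ± 0.83 with both. *Bmp8a* rose by 1.09 ± 0.20 in *Smad2/3* cKO, and *Gdf15*, a stress-induced member of the family, by 0.96 ± 0.19 with both. The normalized counts of *Bmp3* were 1.12 to 24.1 in control + vehicle and 113 to 403 in *Smad2/3* cKO.

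Of 26 other antagonists and modulators listed, 16 were in the file, and those that passed were lower. *Tmeff1*, a membrane protein with follistatin-like domains, fell in each comparison with control + vehicle, by 1.72 ± 0.28, 1.74 ± 0.34 and 1.88 ± 0.28 on the log2 scale. *Rgma*, a membrane co-receptor for BMPs, fell with both treatments, by 3.06 ± 0.64. These made 1 of 9 tested with A83-01, 1 of 10 in *Smad2/3* cKO and 2 of 11 with both.

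Of the 7 BMP receptors, all tested, *Bmpr1b* alone passed, and only with both treatments, where it rose by 1.27 ± 0.22 on the log2 scale. Among 12 tested SMADs and BMP-responsive genes, *Id4*, a BMP-induced inhibitor of differentiation factors, rose by 4.00 ± 0.52, 5.47 ± 0.51 and 5.46 ± 0.46 in the comparisons with control + vehicle. *Id3*, of the same family, rose by 2.75 ± 0.34 in *Smad2/3* cKO and 2.84 ± 0.40 with both treatments, and the transcription factor *Hey1* by 1.59 ± 0.29 and 2.21 ± 0.33. The inhibitory SMAD gene *Smad7* fell by 3.79 ± 0.39 with A83-01 and 4.49 ± 0.50 with both. These made 1 higher and 1 lower gene of 12 with A83-01, 3 higher in *Smad2/3* cKO, and 3 higher and 1 lower with both.

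Among the activin and TGFβ ligands, 5 were tested, and *Inhba*, which encodes the activin A subunit that follistatin binds, was lower beside *Fst*. *Inhba* stood at 70.3, 234 and 259.7 in control + vehicle and at 19.5 or below in the other 12 cultures, and fell by 4.06 ± 0.62 on the log2 scale with both treatments (limma adjusted p = 0.00162). *Tgfb2* rose by 6.13 ± 0.28, 6.86 ± 0.33 and 7.22 ± 0.27 in the 3 comparisons, and *Tgfb3* by 1.52 ± 0.24 in *Smad2/3* cKO and 1.84 ± 0.13 with both. With A83-01 in control organoids 1 of the 5 rose, in *Smad2/3* cKO 2 rose, and with both 2 rose and 1 fell. In the interaction *Id4* (-4.02 ± 0.62) and *Tgfb2* (-5.77 ± 0.44) passed, their response to the drug being smaller in *Smad2/3* cKO.

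**Figure D4:**
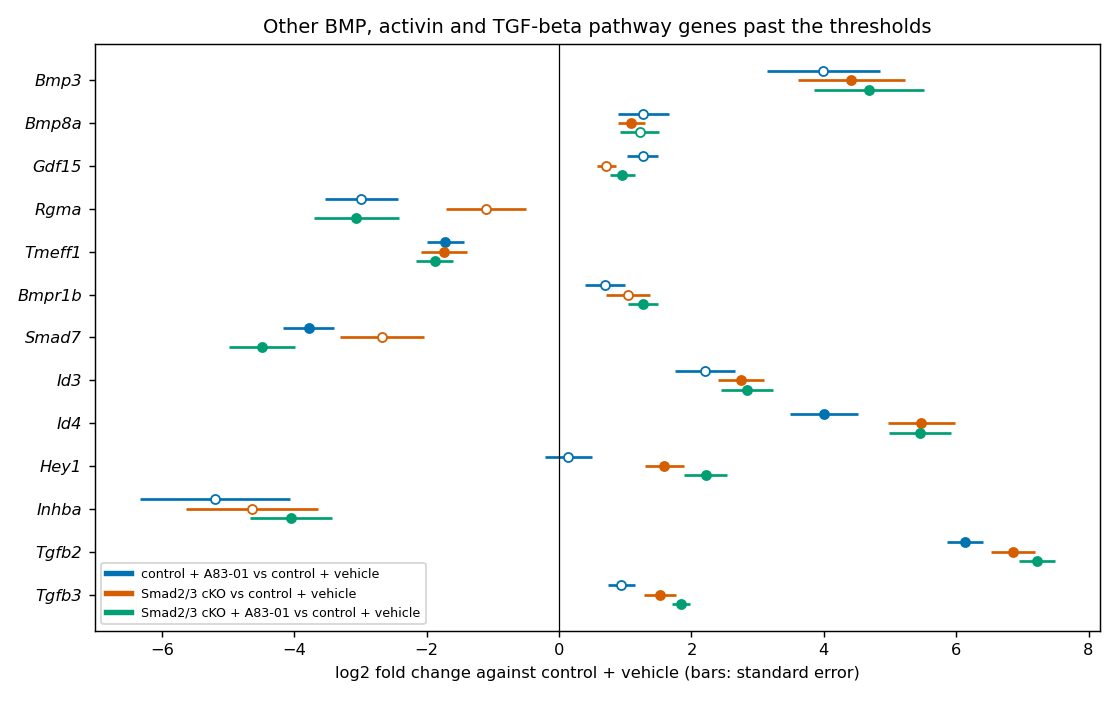
Log2 fold change against control + vehicle (horizontal axis, bars are standard errors) of the 13 other pathway genes that passed in at least 1 comparison (vertical axis), in 3 colors for the 3 comparisons. Filled points passed the thresholds and open points did not. *Tgfb2* lies farthest right, at 6.13, 6.86 and 7.22, and *Smad7*, *Tmeff1*, *Rgma* and *Inhba* lie left of 0.

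Marker levels of epithelium, given above, and of other cells also differed between groups, but not all in the same direction. *Fst*, *Bmp7* and *Bmp4* were highest in control + vehicle. The epithelial sum of control + A83-01 overlapped that of control + vehicle. The keratin *Krt19* averaged 34246 ± 8539 (SD) over the 3 control + vehicle cultures against 10479 ± 6291 over the 4 with the deletion, and *Krt8* averaged 47559.5 ± 10872 against 17779.6 ± 8464. Other markers of that list differed less, such as *Cldn3*, at 5932 ± 536 against 5081 ± 954. *Epcam* alone did not average lower with the deletion, at 23268 ± 1937 against 24265 ± 3024. The 8 of 9 stromal markers in the file summed to 117, 203 and 37.0 in control + vehicle. Their sums were 4.79 to 58.0 with A83-01 in control organoids, 8.63 to 43.9 with the deletion and 6.49 to 136 with both. *Lum* and *Col1a1* were at 0 in all control + A83-01 cultures, *Dcn* and *Lum* in all *Smad2/3* cKO cultures, and *Vim* in all with both treatments. *Lum* and *Dcn* were also at 0 in a control + vehicle culture. Some stromal markers averaged higher than in control + vehicle. These were *Pdgfra* with A83-01 (21.7 against 15.5) and *Vim* with the deletion (9.34 against 7.94). With both treatments they were *Col3a1* (23.1 against 16.0) and *Dcn* (14.6 against 12.6). The 4 of 5 smooth muscle markers summed to 219, 144 and 73.9 in control + vehicle and 29.9 to 86.5 elsewhere. In control + vehicle most of this came from *Acta2*, which averaged 110 there and 11.8 to 18.6 in the other groups. *Tagln* averaged 25.7 in control + vehicle and 20.8 to 35.5 in the others, where it was the largest part. Within control + vehicle *Fst* and the stromal sum stood in the same order, with 1183 beside 203, 380.2 beside 117 and 247 beside 37.0. Outside that group the highest stromal sum, 136 in *Smad2/3* cKO + A83-01 replicate 1, stood beside an *Fst* of 3.86. The 4 of 5 leukocyte markers, mostly *Cd68*, summed to 1216 to 2550.1 in control + vehicle and 1949 to 8347 in the others. *Cd68* and *Ptprc* averaged higher in each other group than in control + vehicle, but *Itgam* and *Adgre1* did not. *Itgam* averaged 19.6 in control + vehicle, 3.96 with A83-01, 45.0 with the deletion and 5.43 with both. *Adgre1* averaged 3.32, 2.49, 90.9 and 0.27 in these groups, the high mean resting on *Smad2/3* cKO replicate 2. The 2 of 5 endothelial markers summed to 27.6 or below. The part of these cells in the differences of the BMP genes was not tested. In bulk RNA, fewer cells of a type and less RNA per cell cannot be told apart.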

How the data were processed

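Organoid RNA from 15 cultures was amplified with a low-input kit that does not mark strand. The authors estimated counts per gene with Salmon 1.4.0 against GRCm39 and normalized them with DESeq2 1.32.0, and the deposited signal values are these normalized counts. Whole reads could not be recovered from them, so tests for raw counts were not used. Gene names (16697 matched) and positions came from GENCODE M21 (GRCm38).

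For each pair of groups limma 3.58.1 (eBayes with trend) in R 4.3.3 was run on those samples alone, on log2 (value + 1), keeping genes whose mean there reached 10. The interaction used all 15 samples. Genes passed at an adjusted p below 0.01 and a change of more than 1.4-fold either way. Code was tested on simulated data. Between control + vehicle and control + A83-01 the replicate numbers also share the label numbers 367, 368 and 395. Deviations of same-numbered samples correlated at 0.423, 0.409 and 0.354. Control + A83-01 replicate 4 and control + vehicle replicate 3, which share no number, correlated at 0.347. The third value thus does not tell pairing by number from another likeness. The shared numbers were read as possible pairs. The values given are from fits without pairing, and the paired fit was an alternative. Alternatives covered pseudocounts, filters, scaling, covariates, the replicate block and left-out samples. The 10 genes, the pathway and marker lists and the thresholds were chosen with earlier results of these data known. All 10 genes are named whatever their values, and other pathway genes where they passed against control + vehicle.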

Additional observations from a re-analysis of the deposited data

Results flagged for a closer look

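In 4 of the 26 groups of 4 cultures examined, 1 culture stood apart from the other 3 by more than 0.829 of the group's range. Chance alone flags about 1 in 20 such groups if values are normally distributed, which counts bounded at 0 need not be. Where 3 cultures are at 0, any value above 0 in the other is flagged. *Bmp4* was 5.82 in control + A83-01 replicate 2, where the other cultures of the group were at 0. *Fst* was 32.4 in *Smad2/3* cKO + A83-01 replicate 2, above 1.95 to 6.46 in the rest. *Chrd* was 36.7 in control + A83-01 replicate 3, above 20.9 to 22.2. *Bambi* was 113 in *Smad2/3* cKO + A83-01 replicate 2, above 89.8 to 91.5. The causes were not tested.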

How the results depend on the processing

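Against the 1 gene of the 10 that passed for A83-01 in control organoids, 0 passed with a pseudocount of 0.1 (*Fst* adjusted p = 0.0326), and 0 to 1 with cultures left out. In *Smad2/3* cKO, 0 passed with the replicate block (*Fst* -4.19, adjusted p = 0.0194), 2 with all 4 groups in 1 fit, 4 at an adjusted p below 0.05 (*Fst*, *Bmp7*, *Fstl3* and *Bmper*), and 0 to 1 with cultures left out. With both treatments, 1 passed with the replicate block (*Fstl3* adjusted p = 0.02 and *Bmper* 0.016 missed) and 1 to 3 with cultures left out, and *Fstl3* missed with the label number series as covariate (0.0205). The block changed no call for A83-01 in control organoids (*Fst* -5.50, limma adjusted p = 0.0017), where same-numbered replicates share a label number. In the other comparisons not every same-numbered pair of deviations correlated above 0.1, so calls lost there are not read as weaker effects. Between the cKO groups r was -0.06, -0.17, 0.37 and 0.37 for replicates 1 to 4, and 0.36 for the 2 cultures that share a label number. It was 0.39 between *Smad2/3* cKO + A83-01 replicate 2 and *Smad2/3* cKO replicate 1. The block by replicate number may thus set the wrong cultures of these groups side by side. Of 399 values of single genes under alternatives other than left-out cultures, 381 kept direction and call and 8 changed sign, none of them called. These were *Bmp7* between the cKO groups (-0.057 with pseudocount 0.1) and between the A83-01 groups (-0.090 with pseudocount 0.1, -0.27 with quantile normalization, -0.38 with the label number series), *Nbl1* between the cKO groups (0.0034 with quantile normalization, 0.40 with the series), and the interactions of *Fstl3* (0.0025) and *Bambi* (0.050) with the series. With cultures left out, sign changes occurred between the cKO groups for *Bmp7* (-0.19 to 0.79), *Bambi* (-0.14 to 0.26) and *Nbl1* (-0.21 to 0.20), between the A83-01 groups for *Bmp7* (-0.41 to 0.74), between *Smad2/3* cKO and control + A83-01 for *Fstl3* (-0.12 to 0.22) and *Chrd* (-0.28 to 0.13), and in the interaction of *Bambi* (-0.30 to 0.091).

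Over all genes the 295 for A83-01 in control organoids became 443 with the series, 655 with all groups, 955 at adjusted p below 0.05 and 49 to 312 with cultures left out. The 970 for *Smad2/3* cKO became 211 with the block, 2410.0 at 0.05 and 280 to 992 with cultures left out. The 1538 for both treatments became 568, 2928 and 736 to 1580.0. The 3 between the A83-01 groups became 0 with the block, 72 with the series, 5 with all groups and 0 to 4 with cultures left out, and the 72 of the interaction 208 at 0.05 and 39 to 77. The cause was not tested. With 3 control + vehicle cultures, a difference had to be large against the spread to pass, and genes below a mean of 10 could not be tested.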
